A study of Mus musculus with 8 samples.

Results

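The core histone and linker histone genes were followed in mouse sperm and epididymis, with the testis-specific variants set apart from the genes that supply histones for DNA replication. A gene was included when its symbol in the platform annotation, or an older symbol that RefSeq lists for it, began with Hist1h to Hist4h, H2af, H3f3 or H1f, and when a probe set named that gene alone. This gave 41 genes of the 19411 on the array with a single-gene probe set. The rule reads gene names and requires no level, and it was set with earlier results of these data known. The 41 genes were 6 testis variants, 1 oocyte linker histone, 9 replacement histones and 25 replication-type histones (4 linker, 2 H2A, 10 H2B, 2 H3 and 7 H4 genes). Macroh2a3 and H2bu1-ps are annotated as pseudogenes in RefSeq and were kept because the rule named them.

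All mice were of strain C57/Bl6, and each of the 8 samples was hybridised to 1 Affymetrix gene array. Sperm came from the caudal epididymis of males on control diet (3 arrays), low protein diet (2 arrays) or caloric restriction (1 array), and epididymal tissue came from males on control diet and on low protein diet (1 array each). The control and low protein males were 9 to 12 weeks old, and the labels give no age under caloric restriction. Sperm preparations were over 99.5% pure by microscopy, and those with PCR signal of the tissue transcripts Actb or Myh11 had been discarded. The labels do not say whether the arrays of a group came from separate or pooled animals, so a p-value here reflects the spread between the arrays at hand, part of which may be technical.

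Histones wrap DNA into nucleosomes, and linker histones of the H1 family bind the DNA where it enters and leaves the nucleosome. Replication-type histone genes lie in clusters, are transcribed in S phase, and give mRNAs that mostly end in a stem-loop in place of a poly(A) tail. Replacement variants are made outside S phase from ordinary polyadenylated mRNAs. Male germ cells make further variants of their own, and in elongating spermatids most histones are removed and their place is taken first by transition proteins and then by protamines. Mature sperm do not divide and are largely silent in transcription. The labels name an Affymetrix labelling assay and do not say how the RNA was primed, and the part of priming in the histone values was not tested.

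Promoters are printed for 5 genes as examples, and these are not the 5 with the largest tissue changes. The window of H1f7, which had the largest rise, held no match to the searched motifs and is not printed. Each promoter is the 120 bases before the RefSeq start on GRCm38.p6, + strand, 5′ to 3′, with matches to the searched motifs in capitals. H1f6 at chr13:23695691-23695810 is a testis linker histone that rose in sperm. H1f2 at chr13:23738687-23738806 is the linker histone that fell, and H1f1 at chr13:23763548-23763667 is a replication-type linker histone that was not past the threshold. H2bc3 at chr13:23746614-23746733 and H2bc8 at chr13:23571280-23571399 are H2B genes that moved in opposite directions.
H1f6: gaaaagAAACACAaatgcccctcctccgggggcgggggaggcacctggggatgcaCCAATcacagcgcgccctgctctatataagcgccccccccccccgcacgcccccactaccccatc
H1f2: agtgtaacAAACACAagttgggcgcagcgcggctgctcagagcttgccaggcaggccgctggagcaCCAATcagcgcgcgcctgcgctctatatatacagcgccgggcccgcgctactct
H1f1: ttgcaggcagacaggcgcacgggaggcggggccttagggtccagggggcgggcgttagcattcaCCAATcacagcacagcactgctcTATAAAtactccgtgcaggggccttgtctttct
H2bc3: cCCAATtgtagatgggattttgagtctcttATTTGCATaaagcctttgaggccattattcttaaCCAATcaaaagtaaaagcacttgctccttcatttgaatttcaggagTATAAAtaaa
H2bc8: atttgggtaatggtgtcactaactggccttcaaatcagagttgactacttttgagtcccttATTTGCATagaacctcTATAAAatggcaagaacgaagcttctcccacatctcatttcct
H1f6 and H1f2 both held an H1 box, AAACACA, at 114 and 112 bases before the start, and a CCAAT box at 65 and 54 bases. H1f1 held a CCAAT box at 56 bases and TATAAA at 33 bases, and AAACACA was not matched in its window. The octamer ATTTGCAT lay 90 bases before the start of H2bc3, which rose, and 59 bases before that of H2bc8, which fell.

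The testis H2B gene H2bc1 and the testis H2A gene H2ac1 start from opposite ends of 1 shared stretch of 280 bases, chr13:23934157-23934436, printed on the + strand with the H2bc1 start at the left end and the H2ac1 start at the right.
H2bc1 to H2ac1: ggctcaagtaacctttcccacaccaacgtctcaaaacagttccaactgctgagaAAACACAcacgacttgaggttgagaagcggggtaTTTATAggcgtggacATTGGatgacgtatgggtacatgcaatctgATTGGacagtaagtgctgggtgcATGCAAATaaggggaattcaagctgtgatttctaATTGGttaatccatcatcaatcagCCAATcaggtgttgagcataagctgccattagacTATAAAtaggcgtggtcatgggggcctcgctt
Read from the H2ac1 start, this stretch held the octamer in reverse at 124 bases, CCAAT boxes at 66, 90, 147 and 177 bases and TATAAA at 32 bases. The H2bc1 side held a second TATA box, in reverse, and the H1 box.

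Windows of 250 bases before the start were searched on both strands for the CCAAT box (letters CCAAT), the octamer (letters ATTTGCAT), the H1 box (letters AAACACA), the TATA box (letters TATAAA) and the cAMP response element (letters TGACGTCA), and 35 of the 41 genes had a window. The CCAAT box was found in 76.2% of the 21 replication-type windows, against 34.5% of the windows of 27025 genes. The octamer was found in 23.8% against 1.61%, the H1 box in 19% against 6.22% and the TATA box in 52.4% against 13%. The cAMP response element was found in 4.76% against 1.62%. By family, the octamer was matched in 4 of 7 H2B windows and in 0 of 6 H4 windows, and the H1 box in 3 of 4 replication-type linker windows. In the 6 testis variant windows the CCAAT box was matched in 4, the H1 box in 3, the octamer in 2 and the TATA box in 2. The windows of H2ac1 and H2bc1 share 220 bases of the stretch printed above and are not separate readings. Both octamer windows, both TATA box windows and 2 of the 3 H1 box windows were those of this pair. The replacement histones had the TATA box in 0 of 7 windows. No match overlapped a match of another motif. A match is a string of letters and not a shown binding site.

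Values are log2 intensities made with RMA, and a difference of 1 is a doubling. Since probes differ in brightness, levels are compared between arrays for 1 gene and never between genes. Histone genes are near-identical within a family, so a probe set may take up RNA of other copies, and the symbol names the target of the annotation. A gene was called at an adjusted p under 0.05 by limma over all 19411 genes. In bulk RNA, fewer cells of a type and less RNA per cell cannot be told apart. Low protein sperm replicate 2 stood furthest apart, since over all genes it correlated at 0.87 to 0.93 with the remaining sperm arrays. Control sperm and low protein replicate 1 correlated at 0.97 to 0.99 among themselves. The caloric restriction array also stood apart from the controls, at 0.93 to 0.94, and correlated at 0.97 with low protein replicate 1. With the 2 epididymis arrays, control sperm correlated at 0.86 to 0.91 and low protein replicate 1 at 0.839 and 0.845. Caloric restriction sperm correlated with them at 0.78, and low protein replicate 2 at 0.68 and 0.69. The part of this likeness in the diet differences was not tested. The summed signal of 10 late spermatid markers was 25557 to 34919 in control sperm, 39509 and 48160 in low protein sperm, 39639 in caloric restriction sperm, and 3890 and 3861 in control and low protein epididymis. For 10 markers of spermatocytes and earlier germ cells the sums were 1791 to 2122 in control, 4356 in caloric restriction and 2940 and 4328 in low protein sperm, and 486 and 437 in the epididymis. For 14 epididymal epithelium markers they were 3711 to 4911 in control sperm, 3051 under caloric restriction, 3563 and 1984 in low protein sperm, and 9399 and 9943 in the epididymis. Array intensities have no true 0, and no marker was at 0.

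Between sperm and epididymis, 4 of the 6 testis variants were called higher in sperm and several replication-type and replacement histones were called lower. The testis linker histone H1f7 rose by 1.76 ± 0.26 (SE) and the testis H2B gene H2bc1 by 1.63 ± 0.24, while the H2B gene H2bc4 fell by 1.39 ± 0.29 and the H2A.Z gene H2az1 fell by 1.23 ± 0.15. Of the 41 genes 17 were called, 6 higher and 11 lower in sperm, beside 37.8% of all genes called, 15.2% higher and 22.7% lower. Without the low protein epididymis array 5 of these 17 calls were kept (H1f7, H2bc1, H2az1, H2bc8 and H4c4), and all genes called dropped to 14.3%. Without the control epididymis array 11 were kept, beside 27.4% of all genes. In 7 genes every sperm array lay above both epididymis arrays and in 15 below them, beside 22.9% and 28.0% of all genes. The 5 control and low protein sperm arrays and both epididymis arrays set this difference, because the fit gives caloric restriction a separate term with a single array. Of the calls over all genes 40.1% were higher, and 48.3% after quantile normalization and 51.5% after cyclic loess. Of the calls among the histone genes the shares were 35.3% as reported, 7 of 14 after quantile normalization and 58.8% of 17 after cyclic loess.

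**Figure D1:**
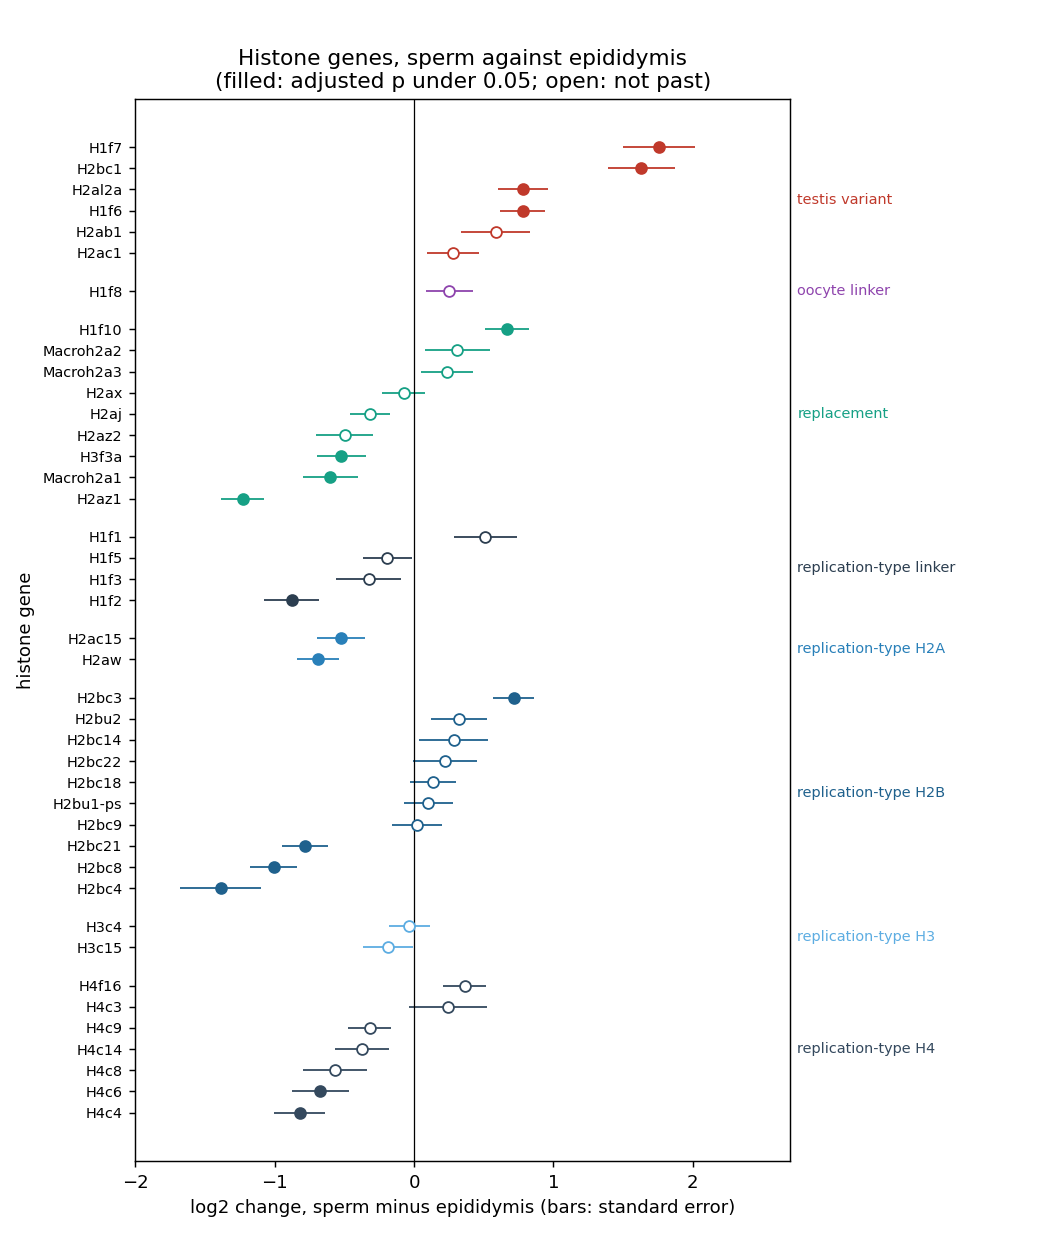
The log2 change in sperm against epididymis is plotted for each of the 41 genes, grouped by class, with bars for the standard error and filled points for genes past an adjusted p of 0.05. The 6 testis variants all lie above 0, between 0.28 and 1.76, and the 25 replication-type genes spread from -1.39 to 0.71.

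Among the 6 testis variants 4 rose in sperm, beside 15.2% of all genes. All 6 changes were above 0 in each alternative run, and their median was 0.78, beside 0.05 over all genes. H1f7, a linker histone of spermatids needed for normal sperm heads, was at 8.21, 7.79 and 7.88 in the control sperm arrays, 8.27 in the caloric restriction array and 8.51 and 9.03 in the low protein arrays, against 6.71 and 6.44 in control and low protein epididymis. Every sperm array lay more than 1 log2 unit above both epididymis arrays. The change of 1.76 ± 0.26 had an adjusted p of 6.54e-04, and it was 1.25 to 2.32 over the alternatives, all past the threshold.

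H2bc1, the testis H2B that replaces ordinary H2B from the spermatocyte stage on, was at 6.73, 6.64 and 5.98 in control sperm, 6.64 in caloric restriction sperm and 7.19 and 7.63 in low protein sperm, against 5.07 and 5.50 in the epididymis. The lowest sperm value, that of control replicate 3, was above the higher epididymis value. The adjusted p was 7.01e-04 for a rise of 1.63 ± 0.24, and all alternatives kept the call. H2ac1, the testis H2A partner that shares the stretch printed above, was at 7.59, 7.51 and 7.13 in control sperm, 7.92 in caloric restriction sperm and 7.75 and 8.01 in low protein sperm, against 7.32 and 7.38 in the epididymis. Here control replicate 3 lay below both epididymis arrays, and the difference of 0.28 ± 0.19 was not past the threshold (adjusted p 0.263) except after cyclic loess (0.60, adjusted p 0.0487). The difference between these genes in their tissue change was not tested.

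H1f6, the linker histone H1t of spermatocytes and spermatids, was at 6.49, 6.102 and 6.17 in control sperm, 6.33 in caloric restriction sperm and 6.55 and 6.66 in low protein sperm, against 5.46 and 5.84 in the epididymis. The groups did not overlap. The rise of 0.78 ± 0.16 had an adjusted p of 0.0043, which became 0.0505 without the control epididymis array and 0.0576 without the low protein epididymis array.

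The short H2A variants of late spermatids were H2al2a and H2ab1. H2al2a, whose product helps load transition proteins, was at 7.35, 7.33 and 6.93, 7.50 and 7.87 and 7.23 in control, low protein and caloric restriction sperm, against 6.39 and 6.94 in the epididymis. Control replicate 3 overlapped with low protein epididymis, and the rise of 0.78 ± 0.18 (adjusted p 0.0073) was lost without either epididymis array. H2ab1, read by 2 probe sets with identical values, was at 6.53, 6.45 and 6.47, 6.31 and 7.29 and 7.63 against 6.15 and 5.93. Its sperm and epididymis values did not overlap, but the difference of 0.59 ± 0.25 missed the threshold (adjusted p 0.0902).

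**Figure D2:**
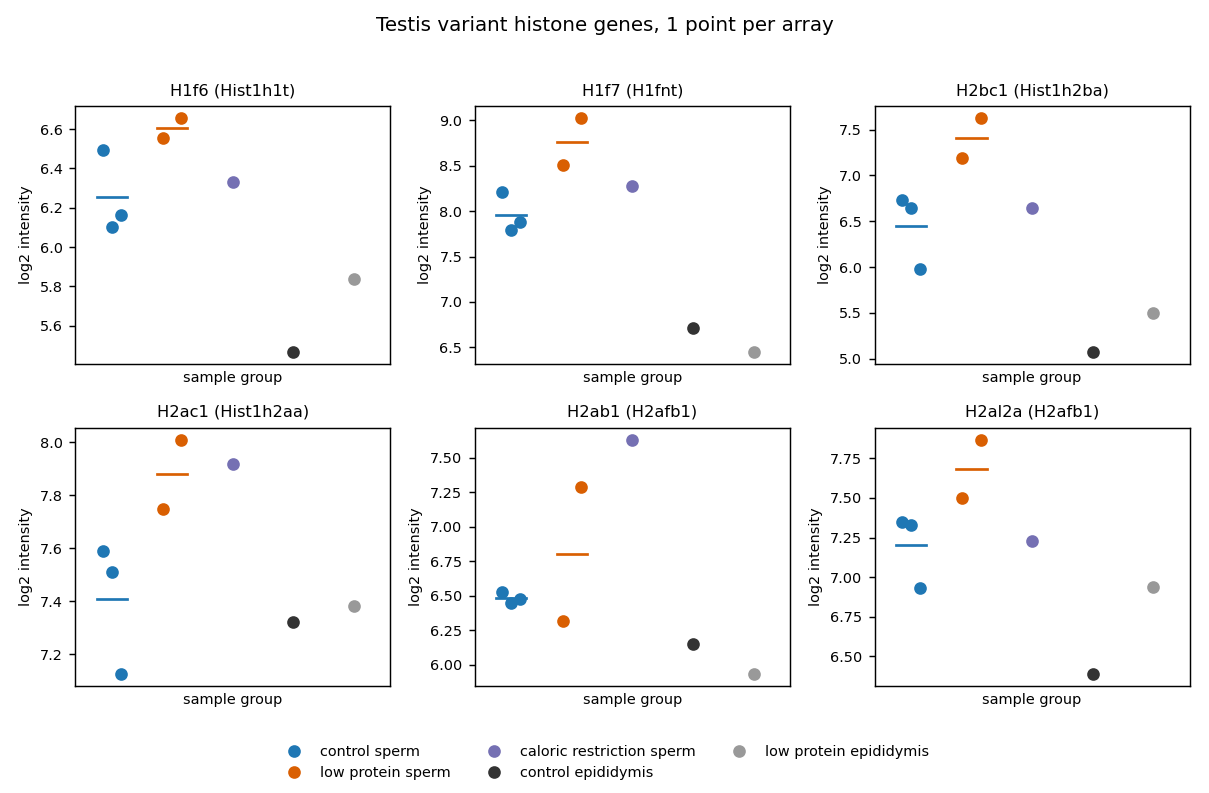
Log2 intensities of the 6 testis variants are plotted with 1 point per array, coloured by group, and horizontal lines for the means of the control and low protein sperm arrays. For H1f7 the sperm points lie between 7.79 and 9.03 and the epididymis points at 6.71 and 6.44, while for H2ac1 and H2al2a the lowest control sperm array lies within or below the epididymis points.

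Of the 4 replication-type linker histones 1 fell and none rose, beside 22.7% of all genes lower and 15.2% higher. H1f2, a linker histone made in most cells, was at 7.15, 7.22 and 7.36 in control sperm, 6.85 in caloric restriction sperm and 6.90 and 6.33 in low protein sperm, against 7.88 and 7.75 in the epididymis. All sperm values lay below both epididymis values, with a change of -0.88 ± 0.20 (adjusted p 0.0067). This call was lost without the low protein epididymis array. H1f1 was at 7.30, 7.16 and 6.57, 7.01 and 7.50 and 7.28 in the sperm groups, against 6.57 and 6.66, so control replicate 3 lay level with the epididymis and the other 5 sperm arrays above it. Its difference of 0.51 ± 0.23 had an adjusted p of 0.102. H1f5 differed by -0.19 ± 0.18 and H1f3 by -0.33 ± 0.23, neither past the threshold. H1f8, the oocyte linker histone, differed by 0.25 ± 0.17 and was not past it either.

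Among the 21 replication-type core histone genes 7 fell and 1 rose, beside 22.7% of all genes lower and 15.2% higher. The median over all 25 replication-type genes was -0.19, beside 0.05 over all genes. H2bc4 was at 7.39, 7.81 and 7.06 in control sperm, 6.49 in caloric restriction sperm and 7.55 and 6.47 in low protein sperm, against 8.70 and 8.51 in the epididymis. Sperm arrays varied over more than 1 log2 unit among themselves, and all were below the epididymis (change -1.39 ± 0.29, adjusted p 0.0045, and 0.072 without the low protein epididymis array). H2bc8 was far tighter, at 4.35, 4.28 and 4.26, 4.71 and 4.37 and 4.09 in the sperm groups against 5.49 and 5.33, with a change of -1.01 ± 0.17 (adjusted p 0.0013) that held in each alternative run. Its level lay under the 30% of genes with the lowest means, and leaving those out removed it from the test.

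H2bc3 moved the other way, at 5.86, 5.84 and 5.81 in control sperm, 5.75 in caloric restriction sperm and 5.998 and 6.24 in low protein sperm, against 5.16 and 5.37 in the epididymis. The groups did not overlap, and the rise was 0.71 ± 0.15 (adjusted p 0.0042, and 0.071 without the low protein epididymis array). It was the 1 replication-type gene called higher, and quantile normalization and cyclic loess called 2 and 3 such genes. In the H2B family 3 genes were lower, 1 higher and 6 not past the threshold, beside 22.7% of all genes lower and 15.2% higher.

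Both replication-type H2A genes fell, beside 22.7% of all genes lower, H2aw with a change of -0.69 ± 0.15 and H2ac15 with -0.52 ± 0.17. The H2B gene H2bc21 fell too, with a change of -0.78 ± 0.16. H2aw was at 7.52, 7.58 and 7.40, 7.52 and 7.49 and 7.34 in control, low protein and caloric restriction sperm, against 8.08 and 8.33. Sperm arrays of all 3 diets lay close together and below the epididymis. H2bc21 was at 6.05, 6.16 and 6.33, 5.85 and 5.72 and 5.69, against 6.79 and 6.76, again without overlap. H2ac15 was at 4.50 to 5.13 in sperm, against 5.41 and 5.42. Its level was low, and leaving out the 30% of genes with the lowest means removed it from the test. The call of H2ac15 was lost without control sperm replicate 1 or 2 or either epididymis array, and those of H2aw and H2bc21 without the low protein epididymis array.

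Of the 7 H4 genes, which encode the same protein, 2 fell and 5 were not past the threshold, beside 22.7% of all genes lower. H4c4 was at 8.17, 8.07 and 7.67, 8.07 and 7.89 and 7.57 in the sperm groups against 8.93 and 8.64 (change -0.82 ± 0.18, adjusted p 0.0062). H4c6 was at 7.72, 7.70 and 7.06, 7.58 and 7.47 and 7.14 against 8.28 and 8.07 (change -0.67 ± 0.21, adjusted p 0.0272). In both, control replicate 3 and the caloric restriction array were the lowest. The calls for H4c4, H4c6 and H2aw were lost after quantile normalization and after cyclic loess, with the sign kept. The other 5 H4 genes ran from -0.57 to 0.36, and the sign of H4c14 turned under those same 2 scalings. Both H3 genes were near 0, H3c4 at -0.03 and H3c15 at -0.19, with overlapping arrays. Both were among the 30% of genes with the lowest means, where a difference is hard to see. The 10 H3 probe sets that name several genes were -0.61 to -0.49 in control sperm minus control epididymis, without a test.

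**Figure D3:**
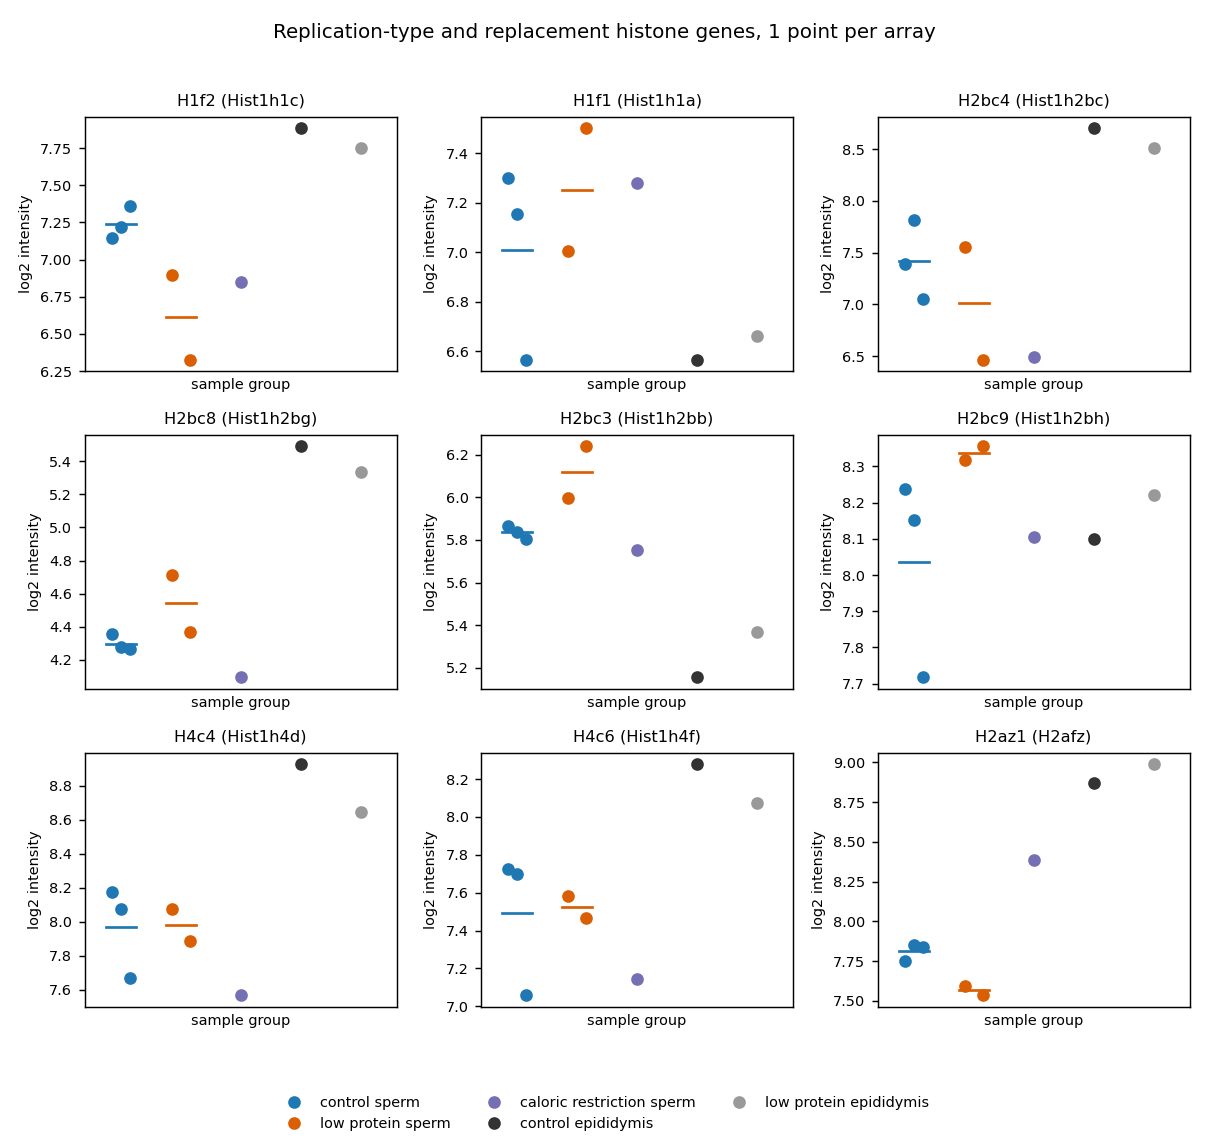
Log2 intensities of 9 replication-type and replacement histone genes are plotted with 1 point per array, coloured by group, and lines for the means of the control and low protein sperm arrays. H1f2, H2bc4, H2bc8 and H2az1 have every sperm point below both epididymis points, H2bc3 has every sperm point above them, and H2bc9, with a difference of 0.02, has overlapping points.

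Of the replacement histones 3 were lower, 1 higher and 5 not past the threshold, beside 22.7% of all genes lower and 15.2% higher. H2az1, which encodes H2A.Z at gene starts, was at 7.75, 7.85 and 7.84 in control sperm, 8.39 in the caloric restriction array and 7.60 and 7.53 in low protein sperm, against 8.87 and 8.99 in the epididymis. The caloric restriction array lay between the other sperm arrays and the epididymis. The change of -1.23 ± 0.15 (adjusted p 2.81e-04) was past the threshold in each alternative run, at -0.80 after quantile normalization and -0.79 after cyclic loess. Its second isoform gene H2az2 differed by -0.50 ± 0.21 and was not past it (adjusted p 0.0839).

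H1f10, a linker histone independent of replication, rose by 0.67 ± 0.16 (adjusted p 0.0088), from 6.52 and 6.35 in the epididymis to 7.16, 7.02 and 7.05 in control sperm. Low protein sperm were at 6.98 and 7.30 and caloric restriction sperm at 7.16, so no sperm array reached down to the epididymis, but the adjusted p was 0.145 without the low protein epididymis array. Macroh2a1, a large H2A variant of silent chromatin, fell by 0.60 ± 0.20 (adjusted p 0.0371). The values of Macroh2a1 were 8.09, 8.08 and 8.20 in control sperm, 7.75 in caloric restriction sperm and 7.89 and 7.36 in low protein sperm, against 8.45 and 8.53. Its call depended on the scaling and on single arrays, with -0.22 after quantile normalization, -0.17 after cyclic loess, -0.33 without the low protein epididymis array and -0.91 without the control epididymis array. H3f3a, a gene of the replacement H3.3, fell by 0.52 ± 0.18 (adjusted p 0.0414), and this call was lost without any 1 of the control sperm or epididymis arrays. The values of H3f3a ran from 4.67 to 5.11 in sperm, against 5.59 and 5.32 in control and low protein epididymis. They were low, so leaving out the 30% of genes with the lowest means removed H3f3a from the test. H2ax, the variant marked at DNA breaks, differed by -0.07 ± 0.15, with the sign turned after quantile normalization and cyclic loess. H2aj differed by -0.31 ± 0.14, Macroh2a2 by 0.31 ± 0.23 and Macroh2a3 by 0.24 ± 0.19, none past the threshold.

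Of 15 measured genes that make and process replication-type histone mRNA 5 fell and none rose, beside 22.7% of all genes lower and 15.2% higher, and their median was -0.34. Npat, the coactivator of histone gene clusters in S phase, fell by 1.04 ± 0.16, and Cpsf3, the endonuclease that cuts histone pre-mRNA, fell by 0.95 ± 0.15. Cpsf2, Casp8ap2 and Cstf2t changed by -0.68 to -0.52. Slbp, which binds the stem-loop, differed by -0.10 ± 0.22 and was not past the threshold. Of 18 S phase and division markers 4 fell (Pcna and the helicase genes Mcm2, Mcm3 and Mcm4) and 1 rose (Cdc6), beside the same 22.7% and 15.2% of all genes, and their summed signal was 1240 to 1428 in sperm against 1474 and 1330 in control and low protein epididymis. All 8 smooth muscle markers fell, with a median change of -3.35, and 7 of 14 epithelium markers fell and 1 rose. The part of these markers in the histone values was not tested.

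Of 18 histone chaperone genes 7 fell and 2 rose, beside 22.7% of all genes lower and 15.2% higher. Nasp, a carrier of H1 and H3 with a testis form, rose by 0.88 ± 0.18, and Chaf1a, the large subunit of the replication chaperone CAF-1, rose by 0.98 ± 0.19. Rbbp7 fell by 1.84 ± 0.30, Supt16 of the FACT complex fell by 1.14 ± 0.25, and Anp32e, which removes H2A.Z, fell by 1.03 ± 0.21. Of 14 genes of histone replacement in spermatids 10 rose and 2 fell, beside 15.2% and 22.7% of all genes, and their median was 1.56. They included the transition protein gene Tnp2 (4.50 ± 0.27), the acetyl-histone reader Brdt (1.46 ± 0.19), the remodeller Chd5 (1.34 ± 0.20) and the ubiquitin ligase Phf7 (1.67 ± 0.18), while Psme4, an activator of histone breakdown, fell by 0.89 ± 0.18.

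In low protein sperm the 6 testis variants all had higher means than in control sperm, and none of the 41 genes was called. H2bc1 differed by 0.96 ± 0.26 (SE; 2 against 3 arrays; adjusted p 0.116) and H1f7 by 0.80 ± 0.22 (adjusted p 0.119). The linker histone H1f2 had the largest negative difference, -0.63 ± 0.21 (adjusted p 0.161). Limma called 0 of 19411 genes (0%). At an unadjusted p under 0.05, 5 of the 41 genes were higher and 2 lower, beside 10.8% and 9.82% of all genes.

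The testis variants had a median difference of 0.48 in low protein sperm, beside 0.01 over all genes. In 5 of the 6 both low protein arrays lay above the 3 control arrays, beside 18.6% of all genes. For H2bc1 the low protein values of 7.19 and 7.63 stood against 6.73, 6.64 and 5.98 in control, and for H1f7 8.51 and 9.03 stood against 8.21, 7.79 and 7.88. In both genes replicate 2 was the higher low protein array and control replicate 1 the highest control. H2al2a differed by 0.48 ± 0.21, H2ac1 by 0.47 ± 0.20 and H1f6 by 0.35 ± 0.19, with adjusted p values of 0.233 to 0.326. H2ab1 was the exception, with 6.31 and 7.29 around the control values of 6.53, 6.45 and 6.47.

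The array that stood furthest apart carried part of these differences. Without low protein replicate 2, H2bc1 differed by 0.74, H1f7 by 0.54, H2ac1 by 0.34, H1f6 and H2al2a by 0.30, and H2ab1 by -0.17. Without replicate 1, the values were 1.18, 1.06, 0.60, 0.40, 0.67 and 0.81, in the same order of H2bc1, H1f7, H2ac1, H1f6, H2al2a and H2ab1, and 11 of the 41 genes were called, 6 higher and 5 lower. That fit called 31.1% of all genes, and it takes the spread of the single low protein array from the controls. The late spermatid and earlier germ cell sums given above were also highest among control and low protein arrays in replicate 2, and the epithelium sum lowest, and their part was not tested.

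The replication-type genes as a class differed little in low protein sperm, with a median of 0.03 and 17 of 25 values above 0. H1f2 was at 6.90 and 6.33 against 7.15, 7.22 and 7.36 in control, with both low protein arrays below the control range and replicate 2 the lower. H2bc14 differed by 0.67 ± 0.24 (adjusted p 0.177), at 7.67 and 7.99 against 7.59, 6.96 and 6.93, and H2bc21 by -0.39 ± 0.18, at 5.85 and 5.72 against 6.05, 6.16 and 6.33. Neither pair of groups overlapped. Of the 25 genes 5 had both low protein arrays above all controls and 2 had both below, beside 18.6% and 17.2% of all genes. H3c4 differed by 0.34 ± 0.17, H2bc9 by 0.30 ± 0.20, H2bc3 by 0.28 ± 0.17 and H4c8 by -0.37 ± 0.25. H1f1, H1f5 and H1f3 differed by 0.25, 0.09 and 0.08, all with overlapping arrays.

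Of the replacement histones, Macroh2a1 had the largest difference in low protein sperm, -0.50 ± 0.20 (adjusted p 0.211), at 7.89 and 7.36 against 8.09, 8.08 and 8.20 in control. It was -0.23 without replicate 2. H2az1 differed by -0.25 ± 0.17 and H2aj by -0.22 ± 0.17. In 3 of the 9 replacement histones, these 2 and Macroh2a1, both low protein arrays lay below all controls, as in 17.2% of all genes. H2az2, H2ax, H3f3a, H1f10, Macroh2a2 and Macroh2a3 lay between -0.31 and 0.25 with overlapping arrays, as did the oocyte linker H1f8 at 0.16.

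In the single caloric restriction sperm array none of the 41 genes was called, while 901 genes (4.64% of all) were. That count was 437 without control replicate 2, 443 without control replicate 3 and 2040 without either low protein array. The caloric restriction comparison uses the same 3 control arrays as the low protein comparison, so the differences in both are not independent. H2ab1 had the largest difference, 1.15 ± 0.34 (SE; 1 against 3 arrays; adjusted p 0.115), at 7.63 against 6.53, 6.45 and 6.47 in control. It was the highest H2ab1 value of the 8 arrays. The call was made after cyclic loess (1.25, adjusted p 0.0398) and without either low protein array, when the spread came from the control arrays alone and H2bc22 and H2bc4 were called too. At an unadjusted p under 0.05, 3 genes were higher and 1 lower, beside 10.4% and 3.56% of all genes.

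H2ac1 was at 7.92 in caloric restriction sperm, above all controls (as were 25.6% of all genes), and differed by 0.51 ± 0.26 (adjusted p 0.43). H1f7, H2bc1, H1f6 and H2al2a differed by 0.31, 0.19, 0.08 and 0.02, the last with its sign turned after quantile normalization. The median of the 6 testis variants was 0.25, beside -0.10 over all genes.

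The replication-type genes leaned lower in the caloric restriction array, with a median of -0.21 and 19 of 25 values below 0, beside 12098 of 19411 genes below 0. In 15 of the 25 the array lay below all 3 controls, beside 43.4% of all genes. H2bc4 was at 6.49 against 7.39, 7.81 and 7.06 in control (difference -0.93 ± 0.41, adjusted p 0.365), and low protein replicate 2 was as low, at 6.47. H2bc22 was at 6.67 against 6.08, 5.55 and 5.56, higher than any other array (0.94 ± 0.32, adjusted p 0.187). H2bc21, H4f16, H2ac15 and H4c14 differed by -0.49 to -0.42. H1f2 differed by -0.39 ± 0.27, and H1f1, H1f3 and H1f5 by 0.27, 0.16 and -0.07.

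H2az1 was the replacement histone with the largest difference in caloric restriction sperm, 0.57 ± 0.21 (adjusted p 0.235), opposite in sign to its low protein difference of -0.25. H2aj differed by -0.50 ± 0.21 and Macroh2a1 by -0.37 ± 0.26. H2az2, H2ax, H3f3a, H1f10, Macroh2a2 and Macroh2a3 lay between -0.06 and 0.16, and the oocyte linker H1f8 at 0.06. Among the genes of histone replacement in spermatids 4 of 14 rose in this array, beside 4.64% of all genes called in either direction. They were Brdt (by 1.498 ± 0.22), Chd5 (by 1.47 ± 0.27), Phf7 (by 1.66 ± 0.22) and Hspa2 (by 1.45 ± 0.22). Of 18 histone chaperone genes 1 rose, Nasp by 1.33 ± 0.21. None of the 15 genes of histone mRNA production was called in either diet comparison.

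**Figure D4:**
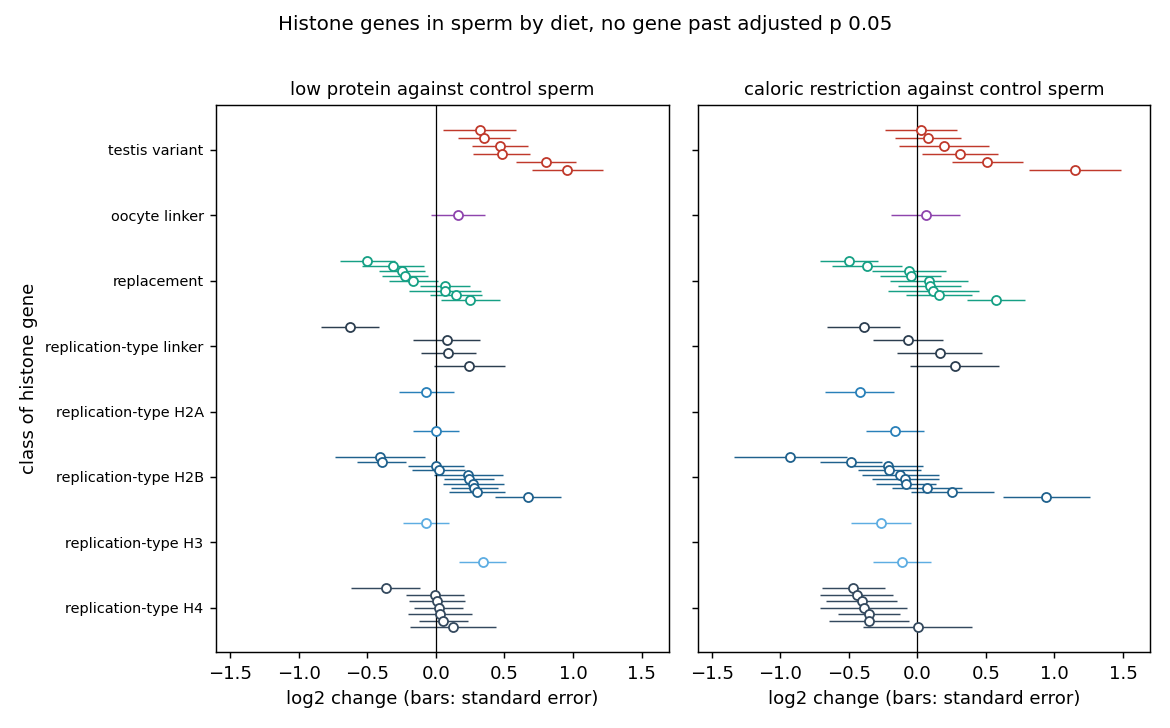
Log2 changes of the 41 genes are plotted by class for low protein against control sperm (left) and caloric restriction against control sperm (right), with bars for the standard error and open points because no gene was past an adjusted p of 0.05. Testis variants lie between 0.32 and 0.96 on the left and between 0.02 and 1.15 on the right, and replication-type genes between -0.63 and 0.67 and between -0.93 and 0.94.

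With both restricted diets set against control, 3 arrays against 3, none of the 41 genes was called, beside 376 genes or 1.94% of all. Leaving out the caloric restriction array or a single control array brought that count to 0, and it was 1241 and 688 without low protein replicate 1 and 2. The testis variants had a median of 0.54. H2bc1 differed by 0.70 ± 0.28 and H1f7 by 0.64 ± 0.22, and the 3 restricted arrays lay above the 3 controls for H1f7 and H2ac1 (0.48 ± 0.18), beside 13.3% of all genes. H2ab1, H2al2a and H1f6 differed by 0.60, 0.33 and 0.26 with overlapping arrays. For H1f2 (-0.55 ± 0.19), Macroh2a1 (-0.45 ± 0.18), H2bc21 (-0.42 ± 0.16) and H2aj (-0.32 ± 0.16) the 3 restricted arrays lay below all controls, as did 13.7% of all genes, with adjusted p values of 0.151, 0.191, 0.175 and 0.303. The other replacement histones H2az1, H2az2, H2ax, H3f3a, H1f10, Macroh2a2 and Macroh2a3 lay between -0.18 and 0.15 with overlapping arrays, and the linker histones H1f1, H1f3, H1f5 and H1f8 at 0.25, 0.11, 0.04 and 0.13. H2bc14, H2bc4, H2bc22 and H4c8 differed by 0.53, -0.58, 0.47 and -0.37. At an unadjusted p under 0.05, 4 genes were higher and 3 lower, beside 10.8% and 10.2% of all genes.

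In the epididymis the diets had 1 array each, and the differences have no replicate check. Between low protein and control epididymis the 25 replication-type genes had a median difference of -0.06 and the testis variants of 0.22. H2al2a differed by 0.55, H2bc1 by 0.43 and H1f6 by 0.37, while H1f7 differed by -0.27, H2ab1 by -0.22 and H2ac1 by 0.06. The linker histones H1f1, H1f2, H1f3, H1f5 and H1f8 differed by 0.10, -0.13, -0.47, 0.09 and 0.15, and the 9 replacement histones lay between -0.28 (H3f3a) and 0.33 (Macroh2a2). H3c15 had the largest difference among the 41 genes, -0.74, at a low level on both arrays (4.53 and 3.79). A test of whether the low protein difference was unlike between sperm and epididymis called 0 of 19411 genes (0%). The smallest p among the 41 was that of H1f7, with 1.07 ± 0.41 (adjusted p 0.972, unadjusted p 0.027). It was the 1 gene of the 41 with an unadjusted p under 0.05, beside 3.55% of all genes higher and 0.422% lower.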

How the data were processed

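RNA of 6 sperm and 2 epididymis samples was measured on 8 arrays. Each probe set has 1 deposited log2 intensity per array, which per the submitters' processing notes was computed by the authors using RMA (version not given in the sources used here). RMA as usually run makes the arrays' distributions alike and so hides a change in total RNA content. Of 33660 probe sets 21222 carried 1 gene, 1541 several and 10897 none, per the platform annotation. Each gene took its probe set of highest mean, giving 19411 genes, with no filter on low values. Symbols were updated through RefSeq; 9 of the 41 genes match the naming rule by the platform symbol and the others by an older RefSeq symbol. Another 33 probe sets name a histone gene together with other genes and were left out. The members and gene lists were chosen with earlier results of these data known.

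Tests used limma 3.58.1 in R 4.3.3 (lmFit, eBayes, two-sided, Benjamini-Hochberg over 19411 genes at 0.05), and were tested on simulated data. The tissue comparison fitted all 8 arrays with terms for tissue and diet. The diet comparisons fitted the 6 sperm arrays with 1 mean for each diet, and borrowed the spread of the single caloric restriction array from the others. Control against both restricted diets had a fit of its own, and the tissue difference in the diet effect used a mean per group. Errors are moderated standard errors. The number of arrays limits the precision. Alternatives were other scalings, filters, probe set means, eBayes settings and leaving out each array. Named by rule were linker, testis and replacement histones, in part as ranges; of the other genes, those called between tissues and up to 6 of smallest p per diet comparison. Promoter windows are those of RefSeq for GRCm38.p6; the build behind the arrays was not used.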

Additional observations from a re-analysis of the deposited data

How the results depend on the processing

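Between sperm and epididymis 17 histone genes were called in the fit as reported and 14 to 17 under median centring, quantile normalization, cyclic loess, the 30% filter, probe set means and both eBayes settings. The 50% filter, which left 25 of the 41 genes to test, gave 11, and leaving out 1 array gave 5 to 19, with 5 when the low protein epididymis array was left out and 11 without the control epididymis array, when 14.3% and 27.4% of all genes were called in place of 37.8%. H1f7, H2bc1, H2az1 and H2bc8 were past the threshold in each alternative that tested them. In low protein sperm the count was 0 throughout except without low protein replicate 1, so leaving out 1 array gave 0 to 11; in caloric restriction sperm it was 1 after cyclic loess and 0 to 3 when 1 array was left out; for both restricted diets it was 0 to 1 when 1 array was left out; and for the tissue difference in the low protein effect it was 0 to 1, the 1 being H1f7 without low protein replicate 1. The median of the replication-type genes stayed below 0 in caloric restriction sperm, and turned sign in low protein sperm (-0.029 to 0.15 with 1 array left out) and for both restricted diets (0.0049 after quantile normalization, 0.077 after cyclic loess, and -0.13 to 0.081 with 1 array left out). Calls over all genes in low protein sperm were 0 in the fit as reported, 373 after cyclic loess and 6038 without low protein replicate 1. For both restricted diets 376 genes were called, and 0 without control replicate 1, 2 or 3 or the caloric restriction array, and 1241 and 688 without low protein replicate 1 and 2. In caloric restriction sperm 901 were called, and 437 to 2040 with 1 array left out. The causes were not tested. No paired analysis was possible because the labels give no number that groups share. Genes at low levels, such as 8 of the 41 under the 30% filter, are limited by signal over background, which these values do not report.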

Other observations

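Some histone genes lie outside the naming rule and were chosen after their values were seen. Among them Hils1 is also counted above, in the list of 14 genes of histone replacement in spermatids. Hils1, a linker-like histone of spermatids, rose in sperm against epididymis by 2.51 ± 0.19 (SE; adjusted p 1.93e-05 by limma), from 5.75 and 6.30 in control and low protein epididymis to between 7.96 and 9.22 in the 6 sperm arrays. The testis H2B variant H2bl1 rose by 2.35 ± 0.23, from 4.88 and 5.24 to between 6.82 and 8.25. H2ap rose by 0.98 ± 0.21 (adjusted p 0.0048). H2bfm rose by 0.46 ± 0.16 and the centromeric H3 variant gene Cenpa by 0.47 ± 0.17, only just past the threshold (adjusted p 0.0476 and 0.0487). H2bfm was at 5.04 to 5.41 in sperm against 4.77 and 4.88, all under the 30% filter level of 5.69. H2al3 differed by 0.51 ± 0.19 and was not past the threshold (adjusted p 0.0595). Alternative runs are not given for these genes. In low protein against control sperm none of these 6 genes was past the threshold; Hils1 differed by 0.82 ± 0.21 and H2bl1 by 0.83 ± 0.25.

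Probe sets that name a histone gene together with other genes gave a set of values apart from the single-gene ones. All 33 had a lower mean in the 3 control sperm arrays than in the control epididymis array, with differences from -1.0 to -0.07 and a median of -0.56. By family the medians were -0.69 for 3 H2A, -0.50 for 8 H2B, -0.53 for 10 H3, -0.75 for 6 H3.3 and -0.68 for 6 H4 probe sets. These probe sets share sequence with each other and are not independent readings, and some have identical values on all 8 arrays. The H3.3 probe sets each name 1 histone gene among 2 genes. With 1 control epididymis array no test was made, and the share of all probe sets with a lower mean was not taken.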
